A study of Mus musculus with 34 samples.

Results

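SOX family transcription factors, 9 genes in all, were followed across 3 brain regions of adult mice: Sox2, Sox4, Sox5, Sox6, Sox8, Sox11, Sox12, Sox13 and Sox21. They are 9 of the 18548 genes in the deposited table and were taken by symbol, as SOX genes known from neurons and progenitor cells. The set was also chosen by a measured value, since Sox13 had one of the smallest p-values for heterozygote against wild type in prefrontal cortex. Values from that contrast are therefore given as a description, without a test, as are differences of Sox13 that involve prefrontal cortex.

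RNA sequencing libraries came from prefrontal cortex (PFC), hippocampus (Hip) and striatum (Str) of male C57BL/6J mice at postnatal day 56, all untreated. Mice labelled heterozygous at Myt1l gave 5 PFC, 5 hippocampus and 6 striatum libraries, and wild-type mice gave 6 libraries of each region. The labels do not describe the allele and do not say that libraries of a group came from separate animals, so each p-value measures the spread between these libraries, which may be technical. Myt1l encodes a neuronal zinc finger transcription factor.

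SOX proteins bind DNA through an HMG box and are sorted into groups by its sequence. SoxB1 factors such as Sox2 keep neural stem cells undifferentiated, and SoxC factors act as newborn neurons differentiate. SoxD factors guide subtype choice in neurons and glia, and SoxE factors are best known from glia. In the adult brain Sox2 is also expressed in astrocytes, and Sox5, Sox6 and Sox8 in parts of the oligodendrocyte lineage, so a level in bulk tissue sums many cell types.

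Upstream sequences of 4 members are shown because MYT family zinc fingers recognise an AAGTTT core. These are the promoters of Sox13, the gene that entered by its PFC value, of Sox11, the SoxC gene that passed in all 6 region comparisons, and of Sox4 and Sox8, which hold the core. They come from RefSeq for GRCm38.p6, run 5′ to 3′ on the gene's strand, which is the minus strand in each case, and end just before the RefSeq start or, for Sox13 and Sox4, before the GENCODE start, which lies further upstream, so that 85 and 236 of the 250 bases are printed. For Sox11 the GENCODE start lies downstream of the RefSeq start, so the stretch does not reach the gene as placed below. Capitals mark AAGTTT or its reverse complement AAACTT. The Sox13 stretch is chr1:133424378-133424462, that of Sox11 is chr12:27342719-27342968, that of Sox4 is chr13:28953714-28953949 and that of Sox8 is chr17:25570687-25570936.
Sox13: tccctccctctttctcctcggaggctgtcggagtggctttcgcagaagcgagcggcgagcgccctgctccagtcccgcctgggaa
Sox11: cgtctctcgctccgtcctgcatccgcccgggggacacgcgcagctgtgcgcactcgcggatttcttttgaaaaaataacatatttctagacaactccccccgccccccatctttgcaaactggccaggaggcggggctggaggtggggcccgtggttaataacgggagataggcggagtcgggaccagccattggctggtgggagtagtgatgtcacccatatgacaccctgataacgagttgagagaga
Sox4: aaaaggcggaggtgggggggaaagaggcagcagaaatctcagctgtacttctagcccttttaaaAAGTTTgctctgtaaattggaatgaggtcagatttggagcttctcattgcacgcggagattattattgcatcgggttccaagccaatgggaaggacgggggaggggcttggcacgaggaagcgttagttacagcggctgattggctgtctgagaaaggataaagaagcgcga
Sox8: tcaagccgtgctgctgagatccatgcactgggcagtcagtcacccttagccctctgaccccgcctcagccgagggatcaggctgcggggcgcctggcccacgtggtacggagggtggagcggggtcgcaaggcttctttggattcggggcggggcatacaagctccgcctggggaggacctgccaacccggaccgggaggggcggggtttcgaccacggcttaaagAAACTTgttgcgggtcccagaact

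All 9 members have a promoter in the RefSeq table, and alternative starts bring their number to 14. Within the 250 bases before each start, 3 of the 14 hold AAGTTT or AAACTT: those of Sox4 and Sox8 and one start of Sox6. Of all 32851 promoters in that table, 12.8% hold it. The SOX core ACAAT, or its reverse complement ATTGT, lies in 4 of the 14 promoters and in 27.7% of all promoters. A match describes the letters in this window only.

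The libraries carried the tissue markers of their labels, and striatum libraries also held genes typical of thalamus, given with Sox13. In wild type, 7 of 7 cortical neuron markers were higher in PFC than in striatum, 8 of 8 hippocampal neuron markers were lower in PFC than in hippocampus, and 7 of 7 striatal neuron markers were lower in PFC than in striatum. Other pairs were less uniform: 6 of 7 cortical markers were higher in PFC than in hippocampus. Of 8 hippocampal markers, 7 were higher and 1 lower in hippocampus than in striatum. Normalized counts summed to 25786041 to 29798959 per library. Myt1l was not lower in heterozygotes: it averaged 6820 ± 456 in heterozygotes and 6650 ± 842 in wild type in PFC, 6896 ± 385 and 6216 ± 594 in hippocampus, and 8162 ± 954 and 7675 ± 552 in striatum (normalized counts, SD, 5 or 6 libraries each; limma adjusted p = 0.72 or more). Because the allele is not described, this level does not check the genotype labels. Columns carry 12 codes, and the code 31-67M stands on PFC wild type replicate 6 and on replicate 1 of the hippocampus and striatum heterozygotes, that is under both genotypes. The labels were followed, and calls that change without these 3 libraries are given beside the result.

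**Figure D1:**
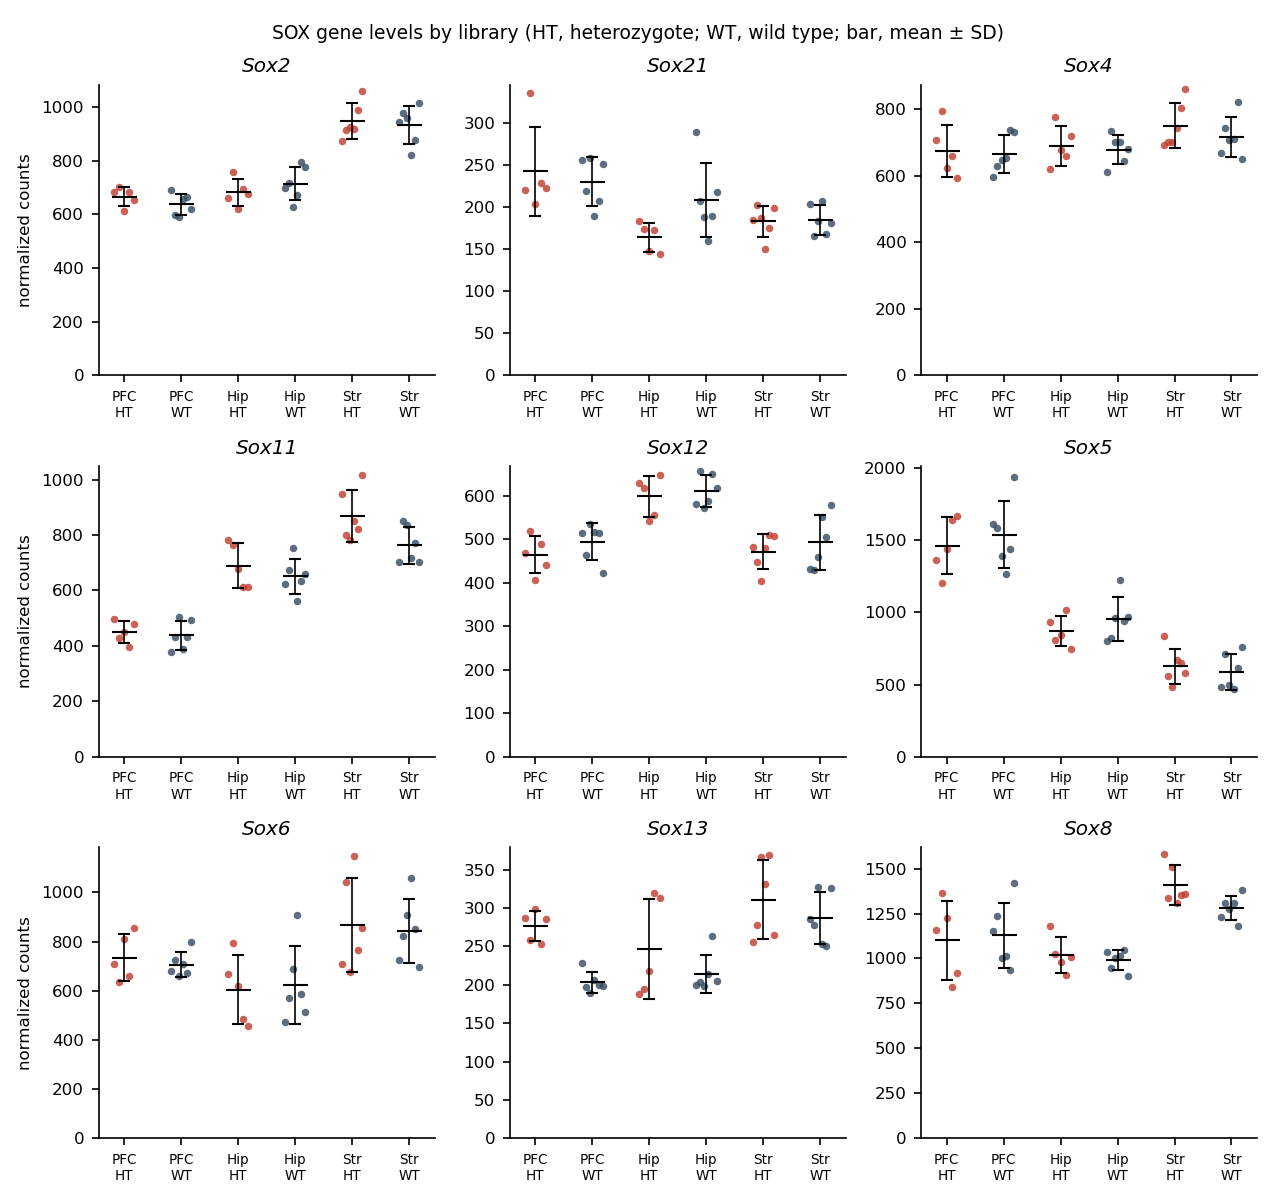
Normalized counts of the 9 SOX genes by library, 1 panel a gene, with heterozygotes (HT, red) left of wild type (WT, dark) in each region; points are libraries and bars the mean ± SD. Sox5 steps down and Sox11 steps up between PFC, hippocampus and striatum in both genotypes. The Sox13 points of the PFC heterozygotes, at 253 to 298, lie above those of PFC wild type, at 189 to 229. That difference was used in the choice of genes.

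All 9 genes were expressed above the filter of a mean of 10 in each region. Per kilobase of merged exon, wild-type PFC held 362 normalized counts of Sox8 and 310 of Sox2, then 139 of Sox4, 111 of Sox12 and 107 of Sox5. Levels per kilobase of the other members in wild-type PFC were 60.6 for Sox21, 52.7 for Sox11, 47.7 for Sox6 and 47.1 for Sox13. The genes differ in how reads can be assigned. Sox2 (ENSMUSG00000074637, GRCm38 chromosome 3, 34650405 to 34652461) is a single exon inside the noncoding gene Sox2ot on the same strand. The spans of Sox21, Sox4, Sox5, Sox6 and Sox8, introns included, overlap genes on the opposite strand, and that of Sox5 also overlaps 2 genes on its own strand. The library kit does not mark strand, so reads from any exon bases that such a pair shares cannot be told apart. Whether exons overlap was not tested. Sox11, Sox12 and Sox13 overlap no annotated gene.

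Regions were compared separately in heterozygotes and in wild type with limma on log2(value + 1), 2-sided, with p-values adjusted by Benjamini-Hochberg over all genes tested at a threshold of 0.05. In bulk tissue fewer cells of a type and less RNA per cell cannot be told apart, here and in all results that follow. Such differences are common between regions, and the members' counts are read against all genes. The shares of all genes given here also stand beside the counts of marker lists in later paragraphs. For PFC against hippocampus, 2 of 8 members were higher and 2 lower in heterozygotes, where 20.7% of all genes were higher and 21.9% lower (42.6% in all), and 1 was higher and 3 lower in wild type, where the shares were 22.7% and 23.6% (46.3% in all). For PFC against striatum, 2 of 8 were higher and 3 lower in heterozygotes, where 26.9% and 28.1% of all genes were (54.9% in all), and 2 were higher and 3 lower in wild type, where 27.7% and 29% were (56.6% in all). These counts leave out Sox13. For hippocampus against striatum, 2 of 9 were higher and 4 lower in heterozygotes, where 22.7% and 22.6% of all genes were (45.3% in all), and 2 were higher and 5 lower in wild type, where 23.6% and 23.9% were (47.5% in all).

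Libraries of the regions did not overlap for fewer genes. For PFC against hippocampus, 2 of 8 members lay wholly higher and 2 wholly lower in heterozygotes, against 16.2% and 15.2% of all genes (31.4% in all), and 1 higher and 2 lower in wild type, against 15.3% and 13.7% (29% in all). For PFC against striatum it was 2 and 2 of 8 in heterozygotes, against 19.6% and 18.7% (38.2% in all), and 1 and 2 in wild type, against 18.4% and 17.5% (35.8% in all). For hippocampus against striatum it was 1 and 2 of 9 in both genotypes, against 15.2% and 14.3% in heterozygotes (29.5% in all) and 15.3% and 14.5% in wild type (29.8% in all). For hippocampus against striatum the median log2 difference over the 9 members was -0.34 in heterozygotes and -0.23 in wild type. With Sox13 included, it was 0.09 and -0.03 for PFC against hippocampus, and -0.16 and -0.20 for PFC against striatum. The median of all genes was -0.01 in each. Without Sox13, the PFC against hippocampus median lies between -0.03 (Sox2) and 0.09 (Sox8) in heterozygotes. In wild type it lies between -0.03 (Sox4) and 0.16 (Sox21), so its sign is not read. For PFC against striatum it lies between -0.22 (Sox6) and -0.16 (Sox4) in heterozygotes, and between -0.20 (Sox8) and -0.11 (Sox4) in wild type.

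The direction of small differences depended on scaling. Scaling the libraries to equal totals moved the median of all genes in wild type to -0.10 for PFC against hippocampus, -0.15 for PFC against striatum and -0.06 for hippocampus against striatum, and in heterozygotes to -0.11, -0.16 and -0.06. In wild type it gave 2883 higher and 5785 lower genes for PFC against hippocampus, where the deposited scaling gave 3858 and 4017. For PFC against striatum it gave 3152 higher and 7273 lower, where the deposited scaling gave 4708 and 4931, and for hippocampus against striatum 3333 and 4928, where it gave 4019 and 4061. In heterozygotes the equal totals gave 2622 higher and 5461 lower (3532 and 3736 with the deposited scaling), 3082 and 7149 (4586 and 4797), and 3197 and 4638 (3877 and 3855) for the same pairs.

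Sox5, a SoxD factor that shapes the identity of deep-layer projection neurons in the developing cortex, had the largest difference of the 9 genes in 5 of the 6 region comparisons; for hippocampus against striatum in heterozygotes Sox6 differed by more. In heterozygotes the PFC libraries held 1360, 1200, 1438, 1641 and 1665 normalized counts and the hippocampus libraries 931, 810, 843, 1016 and 746, while striatum ran from 480 over a median of 614 to 834. The PFC libraries lay above all others, and the hippocampus and striatum ranges overlapped. Log2 differences were 0.75 for PFC against hippocampus (SE 0.13; adjusted p = 9.9e-05), 1.23 for PFC against striatum (SE 0.12; adjusted p = 8.8e-08) and 0.48 for hippocampus against striatum (SE 0.12; adjusted p = 0.0031).

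Wild type gave Sox5 in the same order. In wild-type PFC its lowest, median and highest library held 1266, 1511 and 1938 normalized counts, in wild-type hippocampus 798, 951 and 1223, and in wild-type striatum 471, 555 and 759. No PFC library overlapped a hippocampus or striatum library, and the hippocampus and striatum ranges did not overlap either. The log2 difference was 0.69 for PFC against hippocampus (SE 0.13; adjusted p = 0.00018), 1.40 for PFC against striatum (SE 0.13; adjusted p = 1.3e-08) and 0.70 for hippocampus against striatum (SE 0.13; adjusted p = 0.00014). The deep-layer corticofugal genes, a list that holds regulators such as Fezf2 and Bcl11b, went both ways beside it. Of 11 such genes in the table, 5 were higher and 3 lower in wild-type PFC than in hippocampus, with a median log2 difference of 0.32, and 4 were higher and 6 lower than in striatum, with a median of -0.78. Their summed level was 9531 to 12518 in wild-type PFC, 11708 to 13555 in wild-type hippocampus and 12026 to 15766 in wild-type striatum. Against striatum, Fezf2 was higher in PFC by 3.31 on the log2 scale, and Foxp2, which striatal projection neurons also express, was lower with a difference of -2.22 (limma adjusted p = 2.0e-08 and 1.3e-12). Against hippocampus, Foxp2 was higher in wild-type PFC, by 2.33 (limma adjusted p = 1.1e-12).

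Sox6, another SoxD factor, acts in the maturation of interneurons from the medial ganglionic eminence (MGE) and in oligodendrocyte precursors. In the hippocampus heterozygotes it was at 667, 796, 620, 484 and 455 normalized counts, and in striatum heterozygotes it ran from 678 over 812 to 1148. Wild type ran from 474 over 580 to 909 in hippocampus and from 697 over 835 to 1058 in striatum. The ranges overlapped in both genotypes, and the hippocampus held the low end. The log2 difference for hippocampus against striatum was -0.52 in heterozygotes (SE 0.16; adjusted p = 0.011) and -0.45 in wild type (SE 0.12; adjusted p = 0.0046). Without hippocampus heterozygote replicates 4 and 5, described with Sox13, the heterozygote difference was -0.30 (adjusted p = 0.14).

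PFC levels of Sox6, 635 to 855 in heterozygotes, against 659 to 797 in wild type, lay between those of the other regions, and no comparison with PFC passed. Those calls hung on single libraries and on scaling. Against striatum the wild-type difference of -0.24 (adjusted p = 0.10) became -0.39 with equal library totals (adjusted p = 0.0097), kept its size with adjusted p = 0.034 without hippocampus wild type replicate 4, and the heterozygote difference of -0.22 (adjusted p = 0.24) became -0.37 (adjusted p = 0.0499) with equal totals. Against hippocampus, leaving out hippocampus heterozygote replicate 2 gave 0.41 (adjusted p = 0.047), and leaving out hippocampus wild type replicate 4 gave 0.33 (adjusted p = 0.011). The interneuron genes of MGE origin did not share one direction: 8 of 19 were higher and 10 lower in wild-type hippocampus than in striatum, with Satb1 higher by 1.21 and Gad2, the GABA-synthesising enzyme of most striatal neurons, lower at -2.07 (limma adjusted p = 1.4e-10 and 1.9e-20). Their summed level was 33027 to 35899 in hippocampus and 50298 to 55215 in striatum.

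Sox11 and Sox12 are SoxC genes, and Sox11 is best known from newborn neurons. Sox11 (ENSMUSG00000063632, GRCm38 chromosome 12, 27334264 to 27342574), whose promoter is shown above, lies 2.19 Mb from Myt1l on the same chromosome. In the PFC heterozygotes it was at 498, 428, 451, 395 and 478 normalized counts, in the hippocampus heterozygotes at 783, 764, 677, 613 and 612, and in striatum heterozygotes it ran from 781 over 836 to 1018. Wild type ran from 378 over 432 to 503 in PFC, from 563 over 647 to 752 in hippocampus and from 701 over 744 to 850 in striatum. PFC lay below both other regions with no overlap in either genotype, while hippocampus and striatum overlapped, in heterozygotes only at 781 to 783.

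For PFC against hippocampus the log2 difference of Sox11 was -0.61 in heterozygotes (SE 0.09; adjusted p = 1.9e-05) and -0.57 in wild type (SE 0.08; adjusted p = 3.7e-06). For PFC against striatum it was -0.95 in heterozygotes (SE 0.09; adjusted p = 2.2e-08) and -0.80 in wild type (SE 0.08; adjusted p = 1.6e-08). For hippocampus against striatum it was -0.34 in heterozygotes (SE 0.09; adjusted p = 0.0037) and -0.23 in wild type (SE 0.08; adjusted p = 0.023). This last step was the weak one. In wild type it was -0.19 without hippocampus replicate 4 (adjusted p = 0.064), -0.20 without striatum replicate 2 (adjusted p = 0.060) and -0.20 without striatum replicate 3 (adjusted p = 0.056), and in heterozygotes -0.23 without hippocampus replicates 4 and 5 (adjusted p = 0.065).

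By count more genes of immature neurons were lower than higher in PFC, while their summed level was higher there. Of 14 such genes 4 were higher and 10 lower in wild-type PFC than in hippocampus, with a median log2 difference of -0.70, and 4 were higher and 8 lower against striatum, with a median of -0.44. Stmn1, a tubulin-binding protein of growing neurites that adult neurons keep, was among the higher ones at 1.33, and Cd24a, a surface protein of neuroblasts, among the lower at -1.51 (PFC against hippocampus, limma adjusted p = 2.4e-16 and 3.2e-08). The sum of the 14 genes was 26744 to 28605 normalized counts in wild-type PFC, 20045 to 21272 in wild-type hippocampus and 23206 to 25024 in wild-type striatum. Stmn1 alone averaged 13430 in PFC and 5358 in hippocampus. Choroid plexus and ependymal markers moved with the same contrast, with 10 of 10 lower in wild-type PFC than in hippocampus and none at 0 in a whole group. The summed level of these markers was 227 to 307 normalized counts in wild-type PFC, 2494 to 66248 in wild-type hippocampus and 23390 to 90700 in wild-type striatum. The part of these markers in the region differences was not tested.

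Sox12 followed another pattern, with its highest level in hippocampus. It ran from 407 to 519 normalized counts in PFC heterozygotes, from 543 to 648 in hippocampus heterozygotes and from 405 to 509 in striatum heterozygotes. Wild-type libraries ran from 422 to 535 in PFC, from 572 to 656 in hippocampus and from 429 to 580 in striatum, where 1 library reached into the hippocampus range. PFC was lower than hippocampus at -0.37 in heterozygotes (SE 0.08; adjusted p = 0.0012) and -0.31 in wild type (SE 0.08; adjusted p = 0.0026). Hippocampus was higher than striatum by 0.34 in heterozygotes (SE 0.08; adjusted p = 0.0012) and 0.32 in wild type (SE 0.08; adjusted p = 0.0020). PFC and striatum differed by -0.02 in heterozygotes (95% interval -0.19 to 0.14) and 0.01 in wild type (95% interval -0.15 to 0.17), and the wild-type sign changed with equal library totals and with upper-quartile scaling.

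Sox4, the third SoxC gene, passed in none of the 6 region comparisons. Its libraries held 592 to 861 normalized counts in heterozygotes, against 597 to 821 in wild type over all regions, and all region ranges overlapped. The difference nearest the threshold was PFC against striatum in heterozygotes, at -0.16 (95% interval -0.33 to 0.01; adjusted p = 0.11). It was -0.22 without PFC heterozygote replicate 2 (adjusted p = 0.027) and -0.30 with equal library totals (adjusted p = 0.0042), and in wild type equal totals turned -0.11 (adjusted p = 0.18) into -0.25 (adjusted p = 0.0024).

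Sox2, the SoxB1 factor of neural stem cells and astrocytes, was highest in striatum. In heterozygotes its PFC libraries held 684, 703, 611, 683 and 652 normalized counts and its hippocampus libraries 661, 758, 621, 695 and 677, while striatum ran from 872 over 924 to 1061. In wild type PFC ran from 590 over 638 to 691, hippocampus from 628 over 708 to 796 and striatum from 820 over 953 to 1016. Striatum stood clear of both other regions in both genotypes. The log2 difference for PFC against striatum was -0.50 in heterozygotes (SE 0.06; adjusted p = 1.1e-06) and -0.55 in wild type (SE 0.07; adjusted p = 2.0e-07). For hippocampus against striatum it was -0.47 in heterozygotes (SE 0.06; adjusted p = 3.5e-06) and -0.38 in wild type (SE 0.07; adjusted p = 3.7e-05).

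PFC and hippocampus did not differ in Sox2 past the threshold in heterozygotes (-0.03; adjusted p = 0.73). In wild type they did, by -0.16 (SE 0.07; adjusted p = 0.044), but that call was lost without any one of PFC replicates 2, 3 and 6 or hippocampus replicates 1, 2, 5 and 6, with differences of -0.13 to -0.17 and adjusted p of 0.055 to 0.11, and under upper-quartile scaling (adjusted p = 0.063). PFC replicate 6 is the library whose code stands under both genotypes. The host gene Sox2ot had the same order, at 602 to 688, 883 to 1066 and 1547 to 2003 normalized counts in PFC, hippocampus and striatum of heterozygotes and 529 to 757, 851 to 1026 and 1470 to 1772 in those of wild type. How many reads the pair shares was not tested.

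Sox21, a SoxB2 factor that opposes SoxB1 activity, was higher in PFC. In the PFC heterozygotes it was at 220, 336, 204, 228 and 222 normalized counts, in the hippocampus heterozygotes at 183, 173, 147, 172 and 145, and in striatum heterozygotes it ran from 150 over 186 to 202. In wild type it ran from 190 over 235 to 258 in PFC, from 160 over 198 to 289 in hippocampus and from 165 over 182 to 207 in striatum. PFC heterozygotes lay above both other heterozygote regions without overlap, while the wild-type ranges overlapped. PFC exceeded striatum by 0.38 in heterozygotes (SE 0.12; adjusted p = 0.012) and 0.31 in wild type (SE 0.12; adjusted p = 0.030), and hippocampus by 0.54 in heterozygotes (SE 0.13; adjusted p = 0.0020) and 0.16 in wild type (SE 0.12; adjusted p = 0.30).

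The striatum difference of Sox21 did not hold with equal library totals, at 0.24 in heterozygotes (adjusted p = 0.097) and 0.17 in wild type (adjusted p = 0.23). In wild type it was 0.28 to 0.29 without any one of PFC replicates 1, 3 and 6 or striatum replicates 2 and 5 (adjusted p 0.060 to 0.068); PFC replicate 6 again carries the shared code. The opposite-strand gene Gm4675 was at 0.825 to 20.4 normalized counts in heterozygote libraries and 4.00 to 36.3 in wild-type libraries.

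Sox8, a SoxE factor of the oligodendrocyte lineage and of astrocytes, was highest in striatum. In heterozygotes its PFC libraries held 1158, 1364, 1225, 840 and 917 normalized counts and its hippocampus libraries 1179, 1026, 981, 907 and 1008, while striatum ran from 1306 over 1354 to 1580. In wild type PFC ran from 938 over 1085 to 1422, hippocampus from 902 over 1007 to 1049 and striatum from 1183 over 1291 to 1378. Hippocampus and striatum did not overlap in either genotype, and PFC was the most scattered region. Hippocampus against striatum gave -0.46 in heterozygotes (SE 0.10; adjusted p = 0.0012) and -0.37 in wild type (SE 0.08; adjusted p = 0.00039).

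PFC against striatum gave -0.37 for Sox8 in heterozygotes (SE 0.10; adjusted p = 0.0054) and -0.20 in wild type (SE 0.08; adjusted p = 0.035). The wild-type call was lost without any one of PFC replicates 3, 4 and 5 or striatum replicates 2, 3, 4 and 6, with differences of -0.15 to -0.20 and adjusted p of 0.0505 to 0.10, and without limma's trend and robust options (adjusted p = 0.054). Sox8 did not pass for PFC against hippocampus, but in wild type it passed without PFC replicate 3 (0.20, adjusted p = 0.042), 4 (0.20, adjusted p = 0.048) or 5 (0.22, adjusted p = 0.018). The opposite-strand gene 2810468N07Rik had 699 to 780 normalized counts in striatum heterozygotes and 665 to 823 in striatum wild type, against 442 to 603 and 416 to 629 in the other regions of those genotypes.

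Mature oligodendrocyte markers had the direction of the striatum differences of Sox2, Sox6, Sox8 and Sox11, but not the full region pattern of Sox6 and Sox8. Sox2 and Sox11 had the order of these markers in each wild-type pair of regions. Sox13, too, was lower in wild-type hippocampus than in striatum, at -0.42. Of 14 mature oligodendrocyte markers, 14 were lower in wild-type hippocampus than in striatum and 14 lower in wild-type PFC than in striatum, with medians of -0.61 and -1.07. Mog, a myelin protein, differed by -0.69 and -1.05 (limma adjusted p = 1.3e-07 and 1.4e-10). Their summed level was 92397 to 145677 normalized counts in wild-type PFC, 154249 to 201314 in wild-type hippocampus and 232169 to 282593 in wild-type striatum, with none at 0 in a whole group. In wild-type PFC against hippocampus 14 of these markers were also lower, with a median of -0.39. There Sox2 differed by -0.16 and Sox11 by -0.57, but Sox6 by 0.21 and Sox8 by 0.17, with Sox6 and Sox8 not past the threshold. The wild-type striatum differences were -0.45 against hippocampus and -0.24 against PFC for Sox6, and -0.37 and -0.20 for Sox8. That of Sox6 against PFC did not pass the threshold. Of 14 precursor markers, 2 were higher and 7 lower in wild-type hippocampus than in striatum, and their sums were 22368 to 26852 and 25038 to 27440. Of 11 astrocyte markers 4 were higher and 3 lower in the same contrast, and their sums were 148535 to 162256 in hippocampus and 118842 to 134767 in striatum. The part of these cell types in the SOX differences was not tested.

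Stem cell and related SOX genes give the wider setting. Of 17 neural stem and progenitor genes, 4 were higher and 4 lower in wild-type hippocampus than in striatum, near the 23.6% and 23.9% of all genes. Hopx, a marker of quiescent stem cells and astrocytes, was higher by 1.67, and Id4, an inhibitor of differentiation, lower at -1.08 (limma adjusted p = 1.9e-13 and 4.1e-14). Of the 7 other SOX genes in the table, 2 were higher and 3 lower in wild-type PFC than in striatum, where 27.7% and 29% of all genes were. Sox1, the close relative of Sox2, was at 282 ± 47.8 normalized counts in PFC and 976 ± 118 in striatum (SD, n = 6 each; log2 difference -1.79, limma adjusted p = 3.9e-13). Sox10, the SoxE factor of oligodendrocytes, was at 746 ± 96.7 in PFC and 1211 ± 177 in striatum (log2 difference -0.70, limma adjusted p = 6.8e-07), and Sox17, an endothelial factor, was higher in PFC by 0.65 (limma adjusted p = 0.00017).

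**Figure D2:**
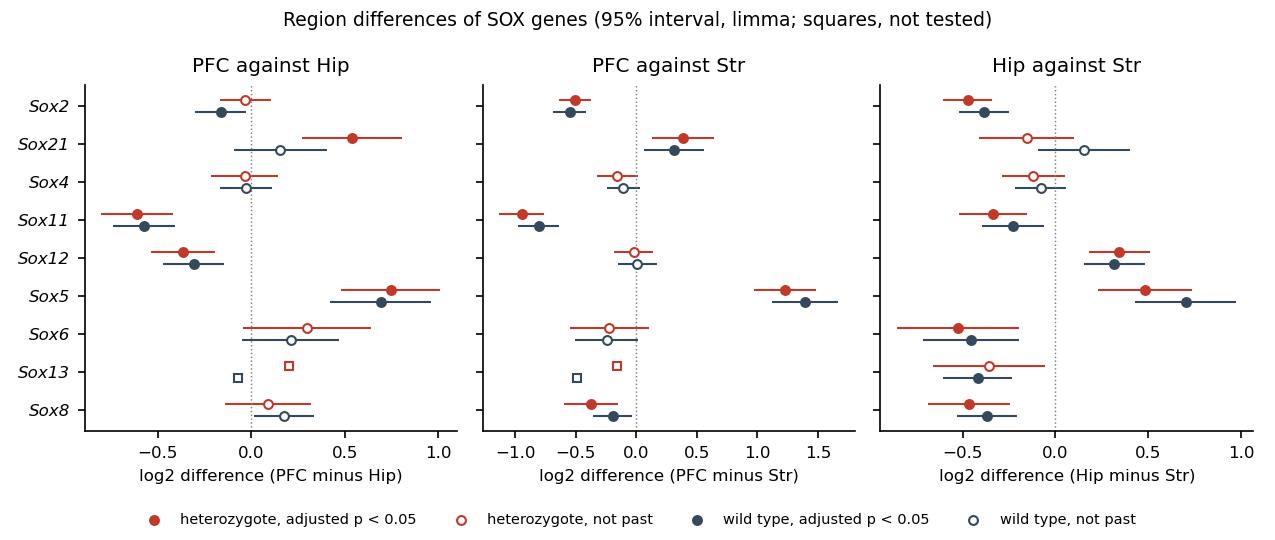
Log2 differences of the 9 SOX genes between regions, first region minus second, 1 panel a pair, with heterozygotes (red) above wild type (dark) in each row; bars are 95% intervals from limma, filled points passed an adjusted p of 0.05, and squares without bars are the untested PFC differences of Sox13. Sox5 lies furthest to the right, at 1.23 in heterozygotes and 1.40 in wild type for PFC against striatum, and Sox11 furthest to the left, at -0.95 and -0.80.

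Sox13 is a SoxD factor, known as a repressor of TCF-dependent Wnt signalling and from glial precursors. It was higher in striatum than in hippocampus. In hippocampus heterozygotes it was at 187, 195, 217, 319 and 313 normalized counts, and in striatum heterozygotes it ran from 255 over 305 to 369. Wild type ran from 199 over 204 to 263 in hippocampus and from 250 over 282 to 327 in striatum. Hippocampus heterozygote replicates 4 and 5 stood among the striatum values, and 1 wild-type hippocampus library reached into the striatum range. The log2 difference was -0.36 in heterozygotes (SE 0.14; adjusted p = 0.0505) and -0.42 in wild type (SE 0.09; adjusted p = 0.00050).

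Against PFC, given without a test, the log2 difference of PFC minus hippocampus was 0.20 in heterozygotes and -0.07 in wild type, and that of PFC minus striatum was -0.16 and -0.49.

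The heterozygote call for hippocampus against striatum in Sox13 turned on details. It passed without hippocampus heterozygote replicate 4 (-0.46, adjusted p = 0.013) or 5 (-0.45, adjusted p = 0.016), without striatum heterozygote replicate 1 (-0.41, adjusted p = 0.029), 2 (-0.39, adjusted p = 0.0495) or 6 (-0.40, adjusted p = 0.039), and with hippocampus replicates 4 and 5 both left out (-0.62, adjusted p = 0.00069). It also passed with 4 other settings of pseudocount, filter or scaling and with replicate blocks, listed with the dependence on processing.

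In PFC, Sox13 (ENSMUSG00000070643, GRCm38 chromosome 1, 133382303 to 133424377) was at 287, 258, 298, 253 and 286 normalized counts in heterozygotes, and wild type ran from 189 over 199 to 229. Every heterozygote library lay above every wild-type library. The means were 276 ± 19.4 in heterozygotes and 203 ± 13.5 in wild type (SD, n = 5 and 6), and the log2 difference was 0.44, the second smallest p-value of 16667 genes. Of all genes tested, 0.462% had groups that did not overlap in PFC, 0.198% with heterozygotes above wild type and 0.264% below, and 0% passed the adjusted threshold. Within libraries whose code begins with 35, 4 of each genotype, the means were 274 in heterozygotes and 205 in wild type, and without the library whose code stands under both genotypes the difference was 0.43. All of these describe the difference that chose the gene, so nothing is read from them.

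The same comparison of Sox13 in the other regions used libraries other than the PFC libraries named in the choice. These may not be independent of it, since 10 of the 12 column codes recur in 3 regions. The members were also chosen with earlier results of these data known. In hippocampus, with the values given above, the means were 246 ± 64.9 in heterozygotes and 214 ± 24.9 in wild type (SD, n = 5 and 6), a log2 difference of 0.17 (SE 0.15; 95% interval -0.14 to 0.48; limma adjusted p = 0.87). Of 5 heterozygote libraries, 3 lay above the wild-type mean. In striatum the means were 311 ± 51.6 in heterozygotes and 287 ± 33.9 in wild type (SD, n = 6 each), a difference of 0.11 (SE 0.11; 95% interval -0.13 to 0.35; limma adjusted p = 0.93), with 3 of 6 heterozygote libraries above the wild-type mean. Neither region showed a difference past the spread between libraries. By code the direction was mixed. In hippocampus, codes that begin with 35 (3 heterozygote and 4 wild-type libraries) averaged 244 in heterozygotes and 220 in wild type, the single pair with 31 held 187 and 199, and the single pair with 37 held 313 and 205. In striatum those averages were 336 and 277 (4 libraries each), and the single pairs held 255 and 286 with 31 and 265 and 326 with 37. The PFC difference was not tested against those of the other regions, since it was used in the choice.

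Hippocampus heterozygote replicates 4 and 5, which held the high Sox13 values, also had the highest summed level, among hippocampus libraries, of 5 genes typical of thalamus, a region that borders the hippocampus: Tcf7l2, Prkcd, Gbx2, Lhx9 and Rora. This list was chosen after values had been seen. Their summed level was 4526 and 3955 in replicates 4 and 5 and 2572 to 2657 in the other 3 heterozygotes, against 2336 to 2923 in wild type. Without these 2 libraries, a step added after seeing the data, Sox13 in hippocampus differed by -0.09 (SE 0.12; limma adjusted p = 0.98), the opposite sign. In striatum the sum was 3820 to 7005 in heterozygotes, against 4124 to 6041 in wild type. Gbx2 was at 97.7 to 192 in striatum heterozygotes and 77.7 to 223 in striatum wild type, against 0 to 19.3 and 0 to 8.77 in hippocampus. Of the 5 genes only Lhx9 had a lower median in striatum than in hippocampus, at 264 and 435 in wild type. In PFC it was 2624 to 3144 in heterozygotes, against 2540 to 3049 in wild type, and most of it was Rora, with a median of 2218 in heterozygotes and 2440 in wild type. Hippocampus heterozygotes also differed in choroid plexus and ependymal markers, which summed to 2832, 22932, 76122, 87213 and 68268 in replicates 1 to 5. In wild-type hippocampus these markers summed to 2494 to 66248. What part tissue from outside the region had in the hippocampus and striatum values, and so in the Sox13 difference between them, was not tested.

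**Figure D3:**
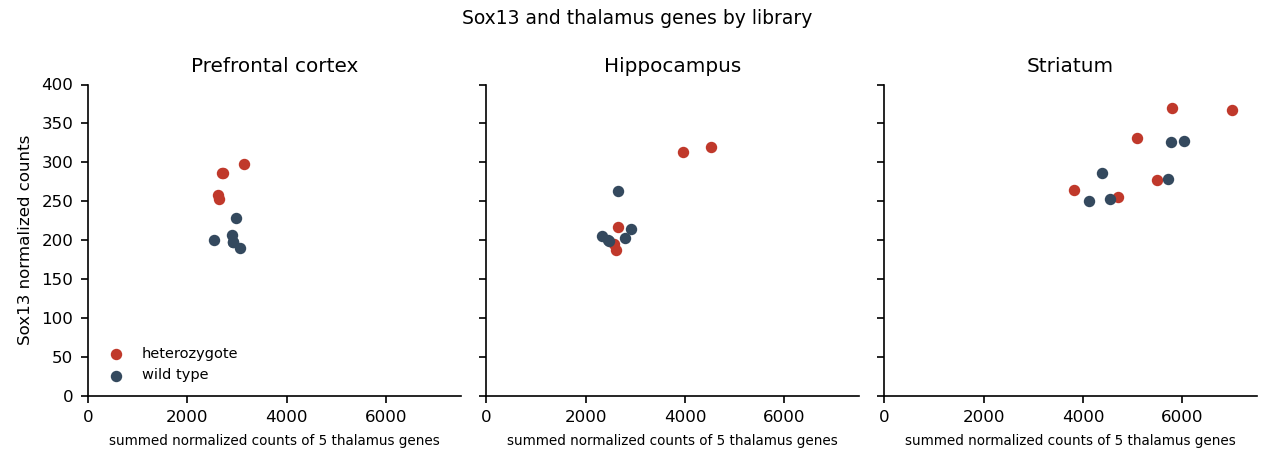
Sox13 normalized counts (vertical) against the summed normalized counts of 5 thalamus genes (horizontal) by library, 1 panel a region; heterozygotes in red, wild type in dark. In hippocampus the 2 heterozygote libraries with Sox13 of 313 and 319 are those with sums of 3955 and 4526.

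The other 8 members showed little difference between genotypes in PFC. Their log2 differences, heterozygote minus wild type, ran from -0.09 for Sox12 to 0.07 for Sox2, and all ranges overlapped. Sox5 held 1200 to 1665 normalized counts in heterozygotes, against 1266 to 1938 in wild type, and Sox11 held 395 to 498 and 378 to 503. Without the library whose code stands under both genotypes the Sox8 difference changed sign, at 0.03 where it had been -0.04.

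In hippocampus and striatum 0 genes passed limma's adjusted threshold for heterozygote against wild type (0% of 16820 and 0% of 17054 genes, none of them a member). Unadjusted p-values under 0.05 numbered 1145 and 1004, where 841 and 853 are 5% of the genes tested. Groups did not overlap for 0.678% of genes in hippocampus (0.321% higher and 0.357% lower in heterozygotes) and 0.399% in striatum (0.141% and 0.258%), and for 0 of the 9 members in either. The median difference of the 9 members was -0.03 in hippocampus and 0.06 in striatum, where the medians of all genes were -0.0014 and -0.0038.

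Sox21 had the smallest p-value of the members in hippocampus. Its values there, given above, averaged 164 ± 17.1 normalized counts in heterozygotes and 208 ± 44.1 in wild type (SD, n = 5 and 6), and 0 of 5 heterozygote libraries lay above the wild-type mean. The ranges overlapped, and the highest wild-type library, at 289, stood well above the next, at 218. The log2 difference was -0.32 (SE 0.13; 95% interval -0.61 to -0.04; limma unadjusted p = 0.028, adjusted p = 0.72). Within codes that begin with 35 the means were 164 in heterozygotes and 186 in wild type (3 and 4 libraries), and without the heterozygote library of the shared code the difference was -0.37 (limma adjusted p = 0.54). In striatum Sox21 differed by -0.01 (95% interval -0.22 to 0.19), and the difference between the 2 genotype effects was -0.31 (SE 0.17; limma unadjusted p = 0.080, adjusted p = 1.00).

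Sox11 and Sox8 had the smallest p-values of the members in striatum. Sox11 averaged 870 ± 93.6 normalized counts in heterozygotes and 763 ± 66.8 in wild type (SD, n = 6 each), and 6 of 6 heterozygote libraries lay above the wild-type mean. The ranges, 781 to 1018 and 701 to 850, overlapped. The log2 difference was 0.19 (SE 0.08; 95% interval 0.02 to 0.35; limma unadjusted p = 0.027, adjusted p = 0.81). Sox8 averaged 1407 ± 111 in heterozygotes and 1280 ± 67.7 in wild type, again with 6 of 6 above the wild-type mean, and differed by 0.13 (SE 0.06; limma unadjusted p = 0.030, adjusted p = 0.81). Neither passed.

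Within codes that begin with 35, 4 striatum libraries of each genotype, both mean differences were smaller. Sox11 averaged 813 in heterozygotes and 793 in wild type, and Sox8 averaged 1376 and 1268. The single striatum library of each genotype with a code that begins with 31 held 949 of Sox11 in the heterozygote and 701 in wild type, and that with 37 held 1018 and 704. For Sox8 the pair with 31 held 1580 and 1230, and the pair with 37 held 1357 and 1378, the other direction. The heterozygote library with 31 carries the code that stands under both genotypes, and without it Sox11 differed by 0.16 and Sox8 by 0.10 (limma adjusted p = 0.68 and 0.70). In hippocampus Sox11 differed by 0.08 and Sox8 by 0.04 (adjusted p = 0.90 and 0.95), and the differences between the hippocampus and striatum effects were -0.11 for Sox11 and -0.10 for Sox8 (adjusted p = 1.00 for both).

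The remaining members stayed near 0 in both regions. In hippocampus Sox5 differed by -0.12, Sox2 by -0.07, Sox6 by -0.04, Sox12 by -0.03 and Sox4 by 0.02, and in striatum the same genes differed by 0.10, 0.02, 0.03, -0.06 and 0.06, with adjusted p of 0.87 or more. The precision differed between genes: the 95% interval of Sox12 in hippocampus was -0.17 to 0.11, that of Sox6 -0.43 to 0.35. Of the 7 other SOX genes in the table, 0 passed for genotype in any region. Sox17 in hippocampus had the smallest p among them, at 213 normalized counts in heterozygotes and 168 in wild type (log2 difference 0.34; limma unadjusted p = 0.021, adjusted p = 0.72).

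**Figure D4:**
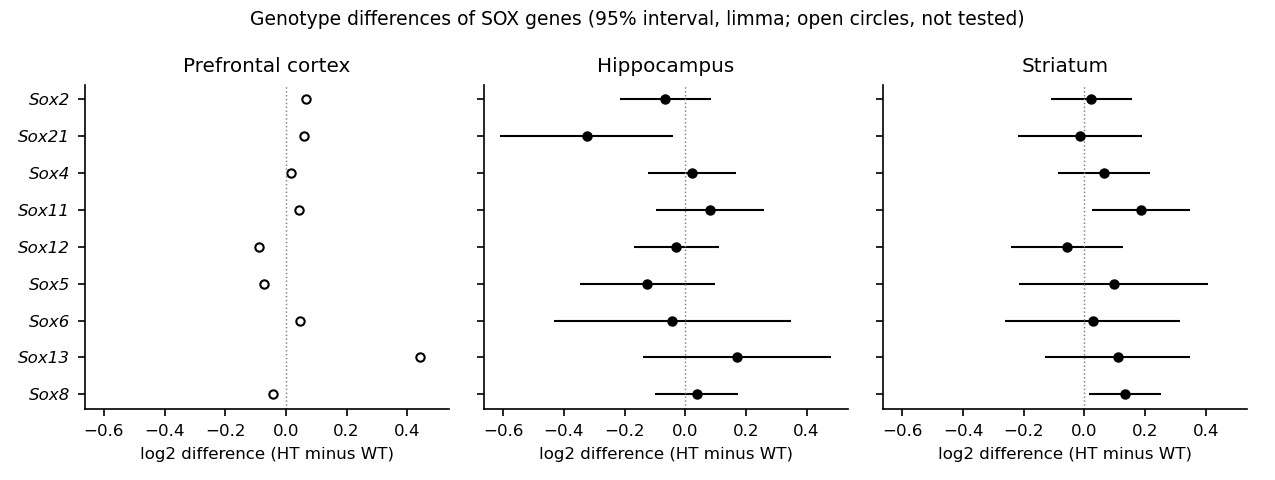
Log2 differences of the 9 SOX genes, heterozygote (HT) minus wild type (WT), 1 panel a region; points are estimates from limma and bars 95% intervals, with none drawn in PFC, whose values were used to choose the genes. Sox13 in PFC, at 0.44, is the difference that was used in the choice. In the other regions Sox21 in hippocampus lies furthest from 0, at -0.32.

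Variation between libraries within groups was used to list the genes nearest each SOX gene. After the mean of its region and genotype was subtracted, each member was correlated with 12671 genes of a mean of at least 100 over the 34 libraries, which share the scaling and, where codes recur, possibly the animal. The values describe these libraries. Each is among the highest of the correlations with 12671 genes, and how high unrelated genes would reach was not tested. For Sox8 the nearest genes were Arc (Pearson r = 0.76), Dusp5 (0.75) and Per1 (0.75), of which Arc and Dusp5 are induced by neuronal activity and Per1 is a clock gene. For Sox13 they were Plcb4 (0.78), Gm43398 (0.75) and Amotl1 (0.74), of which Plcb4, a phospholipase, is strongly expressed in thalamus.

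For Sox2 the nearest genes were Pdcd7 (0.65), Sox9 (0.63), the SoxE factor of astrocytes, and Axin2 (0.63), a target of Wnt signalling. For Sox6 they were Foxo3 (0.67), Klf15 (0.64) and Trp53inp1 (0.62), the first pair transcription factors with known hormone responses. Sox12 lay nearest Mier2 (0.74), Sox21 nearest Wdr74 (0.72), Sox4 nearest the clock gene Cry1 (0.70), Sox11 nearest Sertad4 (0.66) and Sox5 nearest Rnf139 (0.62). No member was among the 3 nearest genes of another.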

How the data were processed

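Libraries were made with a TruSeq RNA Sample Prep Kit v2, per the labels. The deposited table holds 1 signal value per gene and library, named DESeq counts by the authors; the values are not whole numbers and are called normalized counts here. Per the submitters' processing notes, the authors used Salmon 1.1.0, R 3.6.2, DESeq2 1.26.0 and GRCm38, with no role given. Depth before scaling is not known, so no counting intervals are given, and precision is the spread between libraries.

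Symbols, positions and exon lengths came from GENCODE M21 (18533 of 18548 identifiers matched). Values were tested as log2(value + 1) with limma 3.58.1 in R 4.3.3 (empirical Bayes with trend and robust options, 2-sided, Benjamini-Hochberg over all genes tested) for genes with a mean of at least 10. A fold change on this scale understates that of low genes. Regions were compared in 1 fit of the 18 wild-type and 1 of the 16 heterozygote libraries, genotypes within each region, and the difference of genotype effects in 1 fit of 34. The first contrast of each fit was run on simulated data with independent noise between libraries. Recurring codes were not simulated, so dependence between libraries was not checked there. Python 3.11.15 ran the tabulation, with pandas 2.3.3 and numpy 2.4.6.

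The members and gene lists were chosen with earlier results of these data known. Named genes are the 9 members, Myt1l, from each list at most 2 genes a direction with the smallest p among those past the threshold, and the 3 nearest genes by correlation; Sox17 in hippocampus, the genes that overlap members and the thalamus list were named after their values were seen. Alternatives were other pseudocounts, filters, scalings, left-out libraries, codes and blocks.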

Additional observations from a re-analysis of the deposited data

Results flagged for a closer look

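In each member and group of 5 or 6 libraries, the highest or lowest library was set against the others by Dixon's test, 54 combinations in all, of which chance flags about 1 in 20. It picked out 2. Sox21 in PFC heterozygote replicate 2 was at 335.9 normalized counts, with a gap to the next library of 0.816 of the group's range (critical value 0.71). Sox13 in hippocampus wild type replicate 5 was at 263.5, with a gap of 0.769 of the range (critical value 0.625). Without that library the wild-type hippocampus against striatum difference of Sox13 still passed.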

How the results depend on the processing

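Of 1973 recomputed values of tested differences, 1873 kept direction and side of the threshold, 24 came to pass it, 30 no longer passed it and 46 changed sign. Of 308 recomputed values of differences given without a test, 12 changed sign, all between genotypes in PFC. The cause was not tested. Heterozygote against wild type called 0 genes in each region with limma as reported (833, 1145 and 1004 at an unadjusted p under 0.05 in PFC, hippocampus and striatum). In codes beginning with 35 it called 1, 2 and 2. In hippocampus it called 1 with equal library totals, 4 without the libraries whose code stands under both genotypes and 1 with the first part of the code as a covariate. Leaving out 1 library gave 0 to 2 in PFC, 0 to 4 in hippocampus (4 without heterozygote replicate 1) and 0 to 1 in striatum.

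The tested values that changed sign, none of which had passed the threshold, were these. Between regions, Sox12 for PFC against striatum was -0.13 with equal library totals and -0.0020 with upper-quartile scaling in wild type, and 0.00029 with the replicate block in heterozygotes, and Sox8 for PFC against hippocampus was -0.0038 with equal totals in heterozygotes. Leaving out 1 library gave -0.059 to 0.0018 for Sox4 and PFC against hippocampus and -0.029 to 0.058 for Sox12 and PFC against striatum in wild type. In heterozygotes it gave -0.065 to 0.0064 for Sox2 and -0.096 to 0.0093 for Sox4 for PFC against hippocampus, and -0.065 to 0.025 for Sox12 and PFC against striatum.

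Between genotypes, leaving out 1 library gave, in hippocampus, -0.021 to 0.059 for Sox4, -0.059 to 0.0047 for Sox12, -0.15 to 0.073 for Sox6 and -0.016 to 0.079 for Sox8. In striatum it gave -0.014 to 0.048 for Sox2, -0.045 to 0.041 for Sox21 and -0.060 to 0.095 for Sox6. For the difference of the 2 effects of Sox13 it gave -0.041 to 0.15. In codes beginning with 35, Sox8 in hippocampus was -0.048, Sox4 and Sox6 in striatum were -0.0175 and -0.027, and the differences of effects were 0.026 for Sox11 and -0.15 for Sox13. Sox8 in hippocampus was -0.016 without the libraries whose code stands under both genotypes. Without hippocampus heterozygote replicates 4 and 5, chosen after seeing the data, Sox6 and Sox13 in hippocampus were 0.18 and -0.094, and the differences of effects 0.0036 for Sox11 and -0.20 for Sox13. In PFC, given without a test, Sox8 was 0.026 with the replicate block, without the library of the shared code and with the first part of the code as a covariate, and 0.041 in codes beginning with 35. Leaving out 1 library there gave -0.13 to 0.048 for Sox8, -0.064 to 0.11 for Sox21, -0.045 to 0.061 for Sox4 and -0.0099 to 0.097 for Sox6.

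Sox13 for hippocampus against striatum in heterozygotes passed with a pseudocount of 5, a minimum mean of 50, equal totals and upper-quartile scaling (adjusted p = 0.0499, 0.048, 0.033 and 0.040). Libraries with the same replicate number carried the same code throughout wild-type hippocampus and striatum. In wild-type PFC and striatum no same-numbered libraries shared a code, and none did between genotypes within a region. There the replicate block pairs libraries by number only. Deviations of same-numbered libraries correlated at -0.0983 to 0.296 over all pairs of groups, and at 0.0353 to 0.101 for wild-type hippocampus and striatum. With the replicate block, Sox6 for PFC against striatum in wild type (adjusted p = 0.047) and Sox13 for hippocampus against striatum in heterozygotes (0.020) passed. The block called 7804, 9609 and 7996 genes in wild type for PFC against hippocampus, PFC against striatum and hippocampus against striatum, 7313, 9076 and 7393 in heterozygotes, and 0 between genotypes. Of the 12 column codes, 10 recur in 3 regions, and what a code stands for is not stated in the labels. Deviations of libraries with the same code correlated at -0.0327 to 0.296, over 0.1 in 3 of 5 pairs of hippocampus and striatum heterozygotes. A replicate block by column code called 7959, 9701 and 8170 genes in wild type and 7446, 9571 and 7915 in heterozygotes. With this block by code, Sox13 for hippocampus against striatum in heterozygotes passed (adjusted p = 0.046). Sox6 for PFC against striatum in wild type did not pass with it. With scaled values, the depth behind low levels is unknown.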
